A study of Homo sapiens with 26 samples.

Results

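The neighbourhood of MYC and PVT1 was taken as 3 Mb of chromosome 8 (GRCh37, chr8:127700000-130700000), and every peak of the 2 histone marks that shared at least 1 bp with this interval belonged to it, whatever its strength. After overlapping peaks of all lists of a mark had been merged, the interval held 152 of the 87608 H3K27ac regions and 179 of the 110276 H3K4me1 regions of the genome. Of these, 21 H3K27ac regions were called in all 10 H3K27ac lists and 96 H3K4me1 regions in all 6 H3K4me1 lists, or 13.8% and 53.6% of the members against 21.4% and 54.8% of all regions of the mark. A further 75 H3K27ac regions (49.3% of the members, against 41.6% of all regions) had a peak in 1 list and no other.

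The lists came from ChIP-seq of HCT116, a human colorectal carcinoma line with a wild-type p53 response (WT below), and of a line labelled HCT116_RAD21. The study's methods describe the latter as an HCT116 derivative whose cohesin subunit RAD21 carries a degron tag. The labels name no degrader, while the peak names carry the tag rad21KD and the study describes degradation of RAD21 ahead of Nutlin-3a in the cells it profiled. The line is named here by its label, and effects of the line and of RAD21 loss cannot be told apart. Cells were given DMSO alone (0 h) or were treated for 1 h or 10 h with Nutlin-3a, a compound that releases p53 from its inhibitor HDM2. H3K27ac was profiled in WT at 0, 1 and 10 h and in the RAD21 line at 0 and 1 h. H3K4me1 was profiled in WT at 0, 1 and 10 h. Each group had 2 lists, labelled BR1 and BR2. The p-values rest on 1 spread per region, pooled over the 2-list differences within all groups of a mark and adjusted toward that of other regions. They do not measure the spread of the compared groups alone.

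MYC encodes a transcription factor that heterodimerizes with MAX and drives growth and proliferation genes, and it is a proto-oncogene in colorectal and many other cancers. PVT1 is a long noncoding RNA gene that starts downstream of MYC, hosts several microRNAs and is often gained together with it. Upstream of MYC lies a region without coding genes apart from the retrogene POU5F1B, where the noncoding genes PCAT1, CASC19, CASC8 and CCAT2 overlap segments known as distant MYC enhancers in colorectal cells. H3K4me1 marks enhancers whether or not they are active, and H3K27ac marks active enhancers and promoters. In the annotation used here the MYC start is position 128748477 and the PVT1 start 128806787, both on the plus strand, and distances below are from the MYC start to the start of a region.

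The 10 H3K27ac lists held 31640 to 49127 peaks and the 6 H3K4me1 lists 84492 to 92943. The peak names in 3 H3K27ac lists (both WT 0 h lists and WT 1 h replicate 1) lack the word input that all other lists carry, and these lists covered 30.7 to 31.9 Mb of the genome against 49.1 to 66.6 Mb in the other 7. The form of the name therefore separates WT 0 h from WT 10 h and from the RAD21 line completely, and runs between the 2 WT 1 h lists. The lists were checked against markers at gene promoters (1000 bp before to 200 bp after a start). All 6 epithelial markers (EPCAM, CDH1, KRT8, KRT18, KRT19, CLDN4) had H3K27ac in all 10 lists, and the markers of blood (PTPRC, CD3E, CD14), endothelial (CDH5) and stromal cells (COL1A1, COL1A2, PDGFRB) had it in 0 lists.

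H3K27ac lay mainly in a belt upstream of MYC and within PVT1. The 1045 kb upstream of the MYC promoter region held 32.0 to 47.1% of the acetylated length of the neighbourhood, depending on the list, the PVT1 gene 31.0 to 53.4%, the MYC promoter region 5.58 to 9.32% and the 1501 kb beyond PVT1 6.51 to 18.1%. Of the 152 H3K27ac regions, 37 lay upstream, 1 was at MYC, 91 were in PVT1 and 23 lay beyond it. Among the 21 regions called in every list these counts were 9, 1, 8 and 3. The 91 regions of PVT1 included 42 that appeared in 1 list only. The covered length was 51.5 ± 1.58 kb in WT at 0 h, 99.4 ± 60.1 kb at 1 h and 128 ± 0.776 kb at 10 h, and 97.5 ± 14.5 kb at 0 h and 112 ± 2.70 kb at 1 h in the RAD21 line (mean ± SD, n = 2). The spread at 1 h in WT was between the forms of peak name: 56.9 kb in replicate 1 and 142 kb in replicate 2. As a share of everything acetylated in a list the neighbourhood took 0.164 to 0.239%. Set among tiles of 3 Mb along the chromosomes, it covered more length than 79.2 to 88.7% of the tiles that held a peak.

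**Figure D1:**
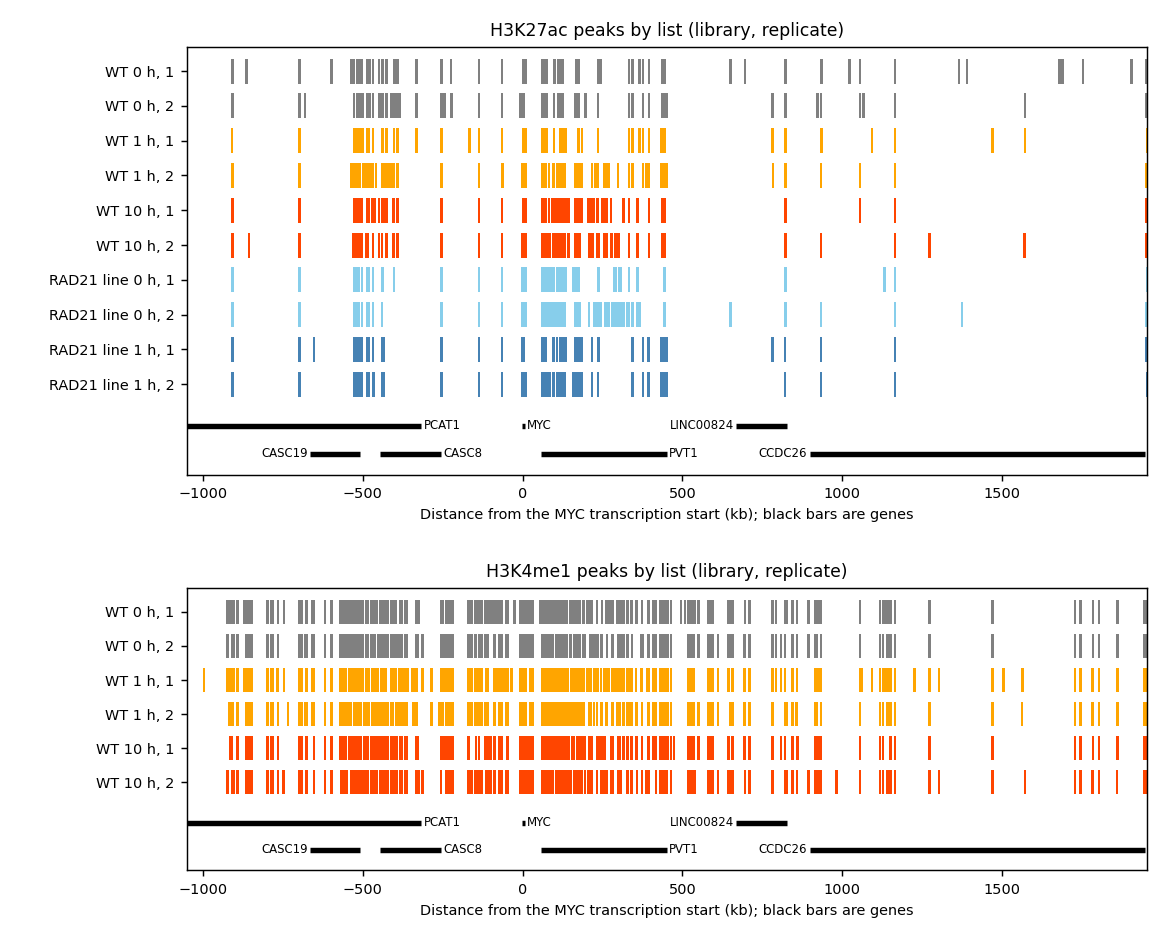
Peaks of the 16 lists along the neighbourhood, with the distance from the MYC start in kb on the horizontal axis, 1 row per list (line, time and replicate) and black bars for genes. Peaks under 8 kb are drawn 8 kb wide to stay visible. H3K27ac gathers upstream of MYC around CASC19 and in PVT1, while H3K4me1 fills the same belts and many single sites between and beyond them.

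Stitching H3K27ac regions called in both lists of at least 1 group (63 of the 152 members) over gaps of up to 12500 bp gave 28 clusters in the neighbourhood, of which 12 had 2 or more regions. The largest spanned 82.5 kb from the PVT1 promoter into the gene (chr8:128805971-128888487, 57.5 to 140.0 kb downstream of the MYC start) and joined 14 regions. Its covered length was 10.0 and 9.12 kb in WT at 0 h, 9.55 and 32.3 kb at 1 h, 36.3 and 36.4 kb at 10 h, 27.9 and 32.3 kb in the RAD21 line at 0 h, and 27.9 and 29.0 kb at 1 h. The 3 lists whose names lack input were the 3 lowest. Its rank by covered length among the 21907 clusters of the genome was 100 to 175 over the 10 lists. The MYC promoter itself formed a cluster of 1 region, ranked 936 to 1977.

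Upstream, the longest single H3K27ac region of the neighbourhood (chr8:128216673-128244406, 27.7 kb, 532 kb upstream, at the CASC19 promoter and inside PCAT1) was the 37th longest of the genome's 87608. It was covered over 7.81, 7.25 and 6.98 kb in the 3 lists without input in their names and over 22.8 to 27.2 kb in the other 7. It was followed by a cluster of 2 regions 491 to 467 kb upstream, a cluster of 3 at an internal PCAT1 start 453 to 428 kb upstream, and a cluster of 3 in CASC8 and POU5F1B 407 to 393 kb upstream. With stitching over 25 kb these 9 upstream regions became a single cluster of 138 kb, ranked 74 to 203 of 15581, and the PVT1 cluster grew to 30 regions over 245 kb, ranked 117 to 269.

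**Figure D2:**
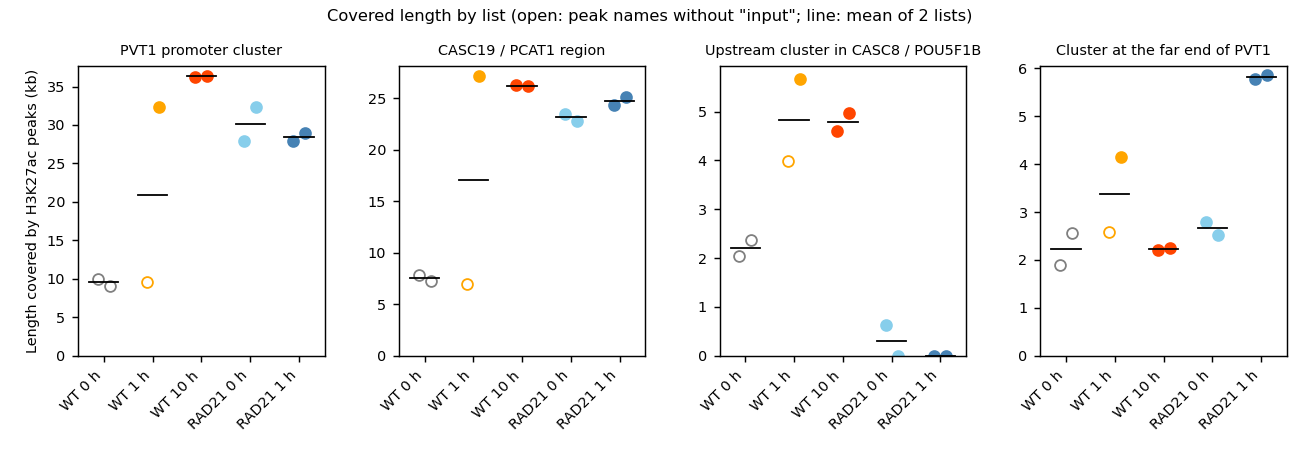
Length in kb covered by H3K27ac peaks in 4 clusters, 1 point per list by group, with open points for lists whose peak names lack input and a line at the mean of 2 lists. In the PVT1 promoter cluster and the CASC19 / PCAT1 region the open points lie at 10.0 kb or less, and the cluster in CASC8 / POU5F1B is at 0 in 3 of 4 lists of the RAD21 line. The cluster at the far end of PVT1 is longest in the RAD21 line at 1 h, whose lists alone brought some of its regions into it.

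The strength of a region in a list was given as the percentile of its strongest peak by -log10 p-value among all peaks of that list, so 100 is the strongest peak. The PVT1 promoter (chr8:128805971-128816947, exon and promoter of PVT1) was the strongest region of the neighbourhood on average. Its percentiles were 92.0 and 93.2 in WT at 0 h, 97.2 and 98.4 at 1 h and 95.0 and 94.9 at 10 h, and in the RAD21 line 92.0 and 93.0 at 0 h and 97.7 and 96.2 at 1 h. In both lines the 1 h lists lay above the 0 h lists without overlap. The MYC promoter (chr8:128745095-128756429, over the MYC gene and the CASC11 promoter) was at 64.5 and 64.6 in WT at 0 h, 69.7 and 91.0 at 1 h and 85.9 and 85.5 at 10 h. In the RAD21 line it was at 85.7 in both 0 h lists and at 78.1 and 79.7 at 1 h, so here the 1 h lists were the lower ones.

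Further strong regions were at an internal PCAT1 start 443 kb upstream (chr8:128305019-128311451, 76.7 to 98.4 over the 10 lists), in PVT1 114 kb downstream at an internal PVT1 start (chr8:128862271-128869944, 67.2 to 93.1), in LINC00824, a noncoding gene 817 kb downstream (chr8:129565318-129570019, 65.4 to 87.4), and near the far end of PVT1 439 kb downstream (chr8:129187881-129190796, 64.0 to 93.6). The PCAT1 gene itself begins at position 127568568, before the interval. The replicates of a group differed by a median of 1.35 to 3.13 percentile points over the 21 regions in 4 groups, and by 12.2 points in WT at 1 h, where the 2 lists differ in the form of the name.

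**Figure D3:**
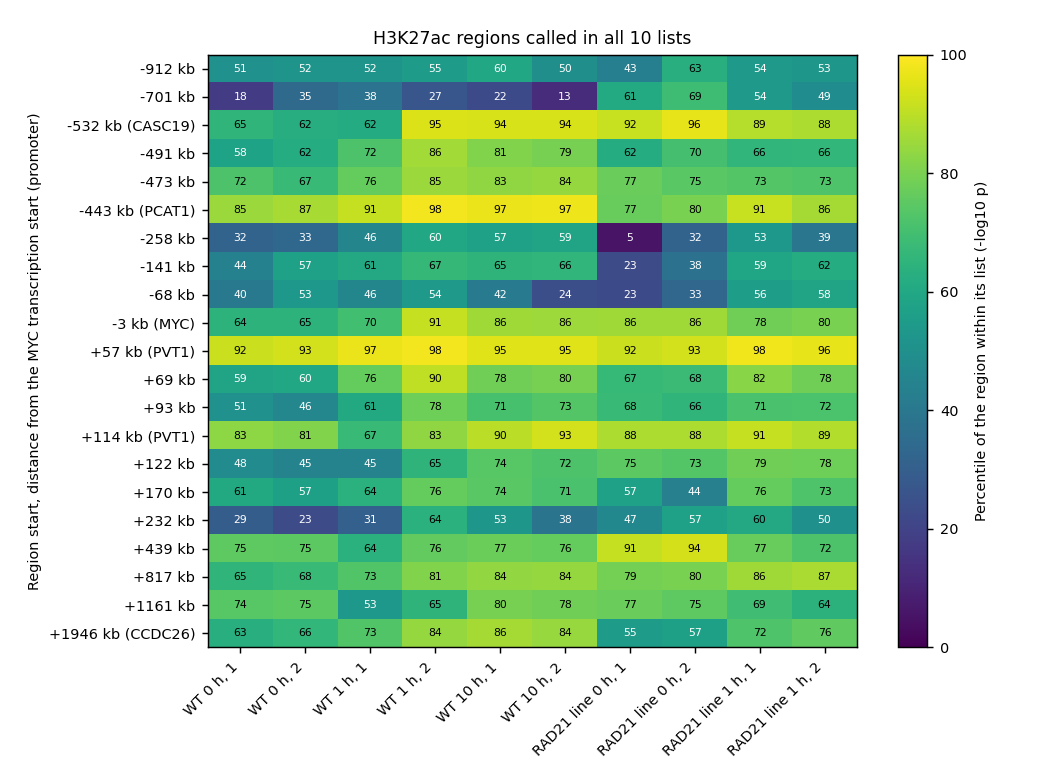
Percentile of each of the 21 H3K27ac regions called in all 10 lists (rows, labelled by the distance of their start from the MYC start and by the promoter they cover) in each list (columns). The PVT1 promoter is at 92.0 or above in every list, and the CASC19 region at 532 kb upstream is at 61.7 to 65.3 in the 3 lists without input in their names and at 87.6 to 96.3 in the others.

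The question of the 1 h comparison is what p53 activation does to acetylation within the first hour. For regions called in all 10 lists (18757 in the genome), ranks among these regions within each list were turned into normal scores, on which 1 unit is 1 SD, and tested with limma over all of them with Benjamini-Hochberg adjustment. Lists differ in how many further peaks they hold, so a percentile among all peaks of a list and a score need not move alike. In WT, 9 of the 21 members rose at 1 h and 1 fell, at adjusted p under 0.05, where 14.3% of all regions tested rose and 14.8% fell. The median change was 0.401 over the members and -0.00690 over all regions. The largest rise was at the region 69.4 kb downstream (chr8:128817849-128825220, intron of PVT1), next to the PVT1 promoter. It went from percentiles 58.5 and 59.8 to 76.4 and 90.4, a change of 1.00 ± 0.161 (SE, adjusted p = 0.000926). A PVT1 region 93.1 kb downstream (chr8:128841585-128846359) rose by 0.772 ± 0.162 (adjusted p = 0.00391) and the PVT1 promoter by 0.618 ± 0.125 (adjusted p = 0.00318). Upstream, the regions 491, 473 and 443 kb from MYC rose by 0.750, 0.401 and 0.744, and without WT 1 h replicate 2 changed by 0.533, 0.313 and 0.368, the middle value no longer called (adjusted p = 0.0886). The fall was in CCDC26, 1161 kb downstream (chr8:129909092-129910113), from 73.9 and 74.6 to 53.4 and 65.2, a change of -0.763 ± 0.129 (adjusted p = 0.00122).

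The MYC promoter rose by 0.682 ± 0.198 at 1 h (adjusted p = 0.0211). This rested on WT 1 h replicate 2: within the lists whose names lack input, that is without replicate 2, the change was 0.254 ± 0.125 (adjusted p = 0.125). Within the same lists the PVT1 promoter changed by 0.553 ± 0.121 (adjusted p = 0.00131), the region 69.4 kb downstream by 0.730 ± 0.145 and that 93.1 kb downstream by 0.573 ± 0.176, all still called. In this within-form comparison PVT1 moved both ways. Its regions 114 and 439 kb downstream changed by -0.568 and -0.385, and the CCDC26 region 1161 kb downstream by -0.762. With every list the 2 PVT1 regions changed by -0.347 and -0.294 and were not called. Ranked by fold enrichment in place of -log10 p, no member and none of the 18757 regions passed at 1 h, with 3706 at an unadjusted p under 0.05, 6 of them members. Without WT 0 h replicate 1 or replicate 2, fewer members were called, and fewer of all regions too.

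A region counted as gained when it was called in both lists of the later group and in neither of the earlier, and as lost in the opposite case. At 1 h, 2 members were gained (1.51% of all 87608 regions), both in introns of PVT1, at 127 and 181 kb downstream, and 2 were lost (1.32%), at 453 and 227 kb upstream. Without WT 1 h replicate 1 the gained members were 24 and without replicate 2 they were 5 (11541 and 3916 of all regions, against 1320 with every list). The lost members were 10 and 15 without WT 0 h replicate 1 and 2, and 4 without WT 1 h replicate 2 (3968, 4490 and 1969 of all regions, against 1158).

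At 10 h, 13 members were gained (11.4% of all regions), and all 13 lay inside PVT1. The strongest were over PVT1 exons 203 kb downstream (chr8:128951668-128953185), at percentiles 58.6 and 59.1 in the 10 h lists, and 253 kb downstream (chr8:129001630-129002893), at 60.5 and 56.0. Outside the 10 h lists each of these had a peak only in RAD21 line 0 h replicate 2, at 1.38 and 6.69. The following gained regions lay 127, 112 and 231 kb downstream, with mean percentiles of 53.5, 41.4 and 38.5. WT 10 h and 0 h differ in the form of peak name. Compared with WT 1 h replicate 2, whose names have the same form, 8 of the 13 were still absent before 10 h, among them the regions at 203 and 253 kb, while those at 127 and 112 kb were not. That comparison, chosen after seeing the data, gave 9 gained and 21 lost members (9.67% and 9.55% of all regions). Against 0 h, 4 members were lost at 10 h (1.90%): regions 372 and 340 kb downstream in PVT1, 335 kb upstream and 227 kb upstream. Without 10 h replicate 1 or 2 the gained members were 26 and 24 (16798 and 19333 of all regions, against 10018 with every list). Without WT 0 h replicate 1 or 2 the lost members were 15 and 19 (4679 and 4901 of all regions, against 1667). The region 335 kb upstream (chr8:128413110-128413809, exon of CCAT2) had peaks of 0.700 kb or less in 3 lists, at percentiles 6.31 and 34.5 in WT at 0 h and 27.2 in WT 1 h replicate 1, which are the 3 lists without input in their names.

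**Figure D4:**
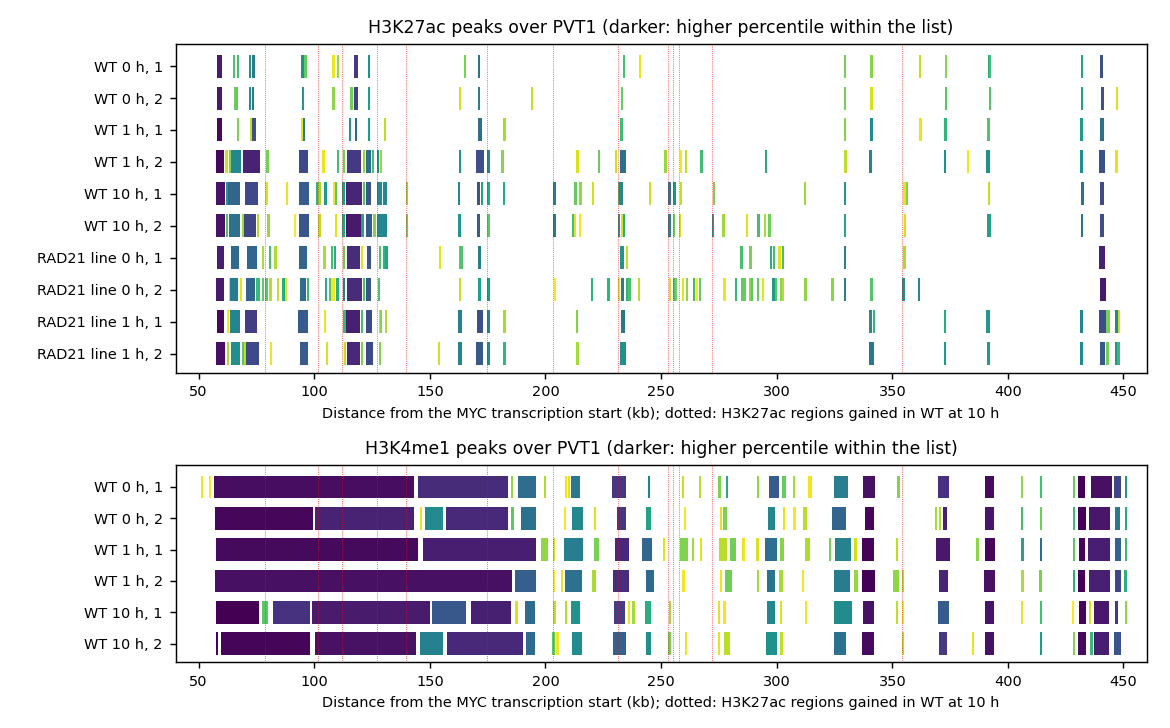
H3K27ac (10 lists) and H3K4me1 (6 lists) peaks over PVT1, by distance in kb from the MYC start and coloured by percentile within the list, with peaks under 1 kb drawn 1 kb wide. Dotted lines mark the 13 H3K27ac regions gained in WT at 10 h, which include those at 203, 253 and 354 kb where H3K4me1 peaks also appeared.

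In rank, 5 members rose at 10 h (9.70% of all regions tested) and 1 fell (8.56%). The rises were at the CASC19 region (1.30 ± 0.319, adjusted p = 0.0155), the internal PCAT1 start, a PVT1 region 122 kb downstream (chr8:128870733-128873704), LINC00824 and the CCDC26 promoter at the edge of the interval (chr8:130694461-130700342, 1946 kb downstream, 0.591 ± 0.137, adjusted p = 0.0122). The fall was 68.0 kb upstream of MYC (chr8:128680433-128681786, exon of a gene without a symbol), from 40.3 and 53.2 to 41.7 and 24.0, by 1.18 ± 0.299 on the normal-score scale (adjusted p = 0.0175), although the percentiles of the groups overlapped. The PVT1 promoter changed by 0.0108 ± 0.125 (adjusted p = 0.961) and the MYC promoter changed by 0.601 ± 0.198 (adjusted p = 0.0506). With the form of the name as a term in the fit no member was called at 10 h, and the CASC19 change turned to -0.182. Time and form cannot be told apart in this contrast. Without a single list of WT 0 h or 10 h, fewer members and fewer of all regions were called, and without either WT 1 h list more of both.

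**Figure D5:**
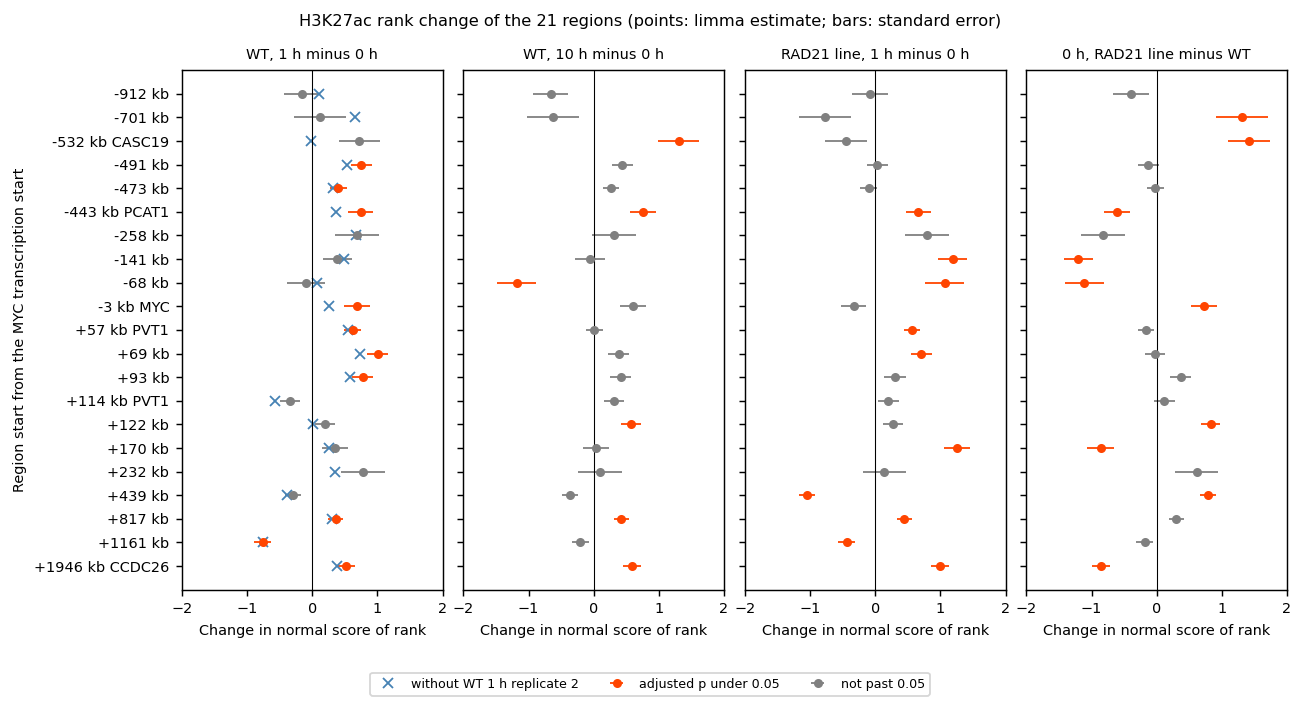
Change in the normal score of rank (horizontal axis, 1 unit is 1 SD) for the 21 regions in 4 contrasts, with limma estimates as points and standard errors as bars, orange-red where the adjusted p was under 0.05. Crosses in the leftmost panel leave out WT 1 h replicate 2, where the MYC promoter estimate moves from 0.682 to 0.254 and the PVT1 promoter from 0.618 to 0.553.

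The RAD21 line addresses the same first hour in cells with the tagged cohesin subunit, and its 4 lists share 1 form of peak name. At 1 h 8 members rose (14.4% of all regions tested) and 2 fell (13.4%). The region near the far end of PVT1, 439 kb downstream, fell from 91.3 and 93.6 to 76.7 and 72.2, by 1.05 ± 0.123 (adjusted p = 8.35e-05). It had the smallest adjusted p among the 21 members. The rises with the smallest p were at the CCDC26 promoter, from 55.2 and 57.0 to 72.3 and 75.7 (0.996 ± 0.137, adjusted p = 0.000227), and at a PVT1 intron 170 kb downstream (chr8:128918557-128921954), from 57.4 and 43.6 to 76.3 and 72.6 (1.25 ± 0.203, adjusted p = 0.000701). Of the 3 sites between the upstream belt and MYC, that 258 kb upstream was not called (0.794 ± 0.339, adjusted p = 0.0985) and the other 2 rose: that 141 kb upstream (chr8:128607964-128609387) from 23.2 and 37.6 to 59.0 and 61.9, and that 68.0 kb upstream from 22.6 and 33.0 to 55.7 and 58.5 (1.19 ± 0.224 and 1.07 ± 0.299, adjusted p = 0.00186 and 0.0178). The PVT1 promoter rose by 0.566 ± 0.125 (adjusted p = 0.00484), and the MYC promoter changed by -0.332 ± 0.198 (adjusted p = 0.232). At MYC this error pools the list differences of all groups, among them the WT 1 h pair at percentiles 69.7 and 91.0. The RAD21 line lists lay closer together, at 85.7 for both 0 h lists and 78.1 and 79.7 after treatment. The absence of a call there is thus not a measure of their spread alone. With the form of the name as a term, 8 members rose and 4 fell, against 4261 and 3579 of all regions tested. By fold enrichment no member and no other region passed here, with 2667 of 18757 at an unadjusted p under 0.05, 5 of them members. Without any single list of the RAD21 line, fewer members and fewer of all regions were called, and without 1 h replicate 1 the PVT1 promoter change was 0.447 and no longer called.

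Around the region that fell at the far end of PVT1, new peaks were called. In the RAD21 line at 1 h, 8 members were gained (4.61% of all regions), among them sites 431, 442.5, 446 and 447 kb downstream on both sides of it, and further ones 390 and 372 kb downstream. The covered length of the cluster 431 to 448 kb downstream went from 2.80 and 2.53 kb at 0 h to 5.79 and 5.86 kb at 1 h. The gained sites on both sides are part of this cluster, those at 442.5 and 447 kb through the 1 h lists alone. The rise in length therefore restates these gains and is not a separate result. The site at 431 kb (chr8:129179477-129181052) was absent from both 0 h lists of the RAD21 line and called in the other 8 lists. The same held for the site at 390 kb. That at 372 kb was also called in the WT 0 h and 1 h lists, and was absent in WT at 10 h. A further 8 members were lost at 1 h (2.87%), the strongest 329 kb downstream (chr8:129077428-129078400), at 55.0 and 55.5 at 0 h. Without 0 h replicate 1 the lost members were 39 and without replicate 2 they were 13 (10889 and 9007 of all regions, against 2512 with every list). The 2 RAD21 line 0 h lists held 54 and 85 peaks in the neighbourhood, against 52 and 54 at 1 h.

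Between the lines at 0 h, 5 members were higher in the RAD21 line (16.8% of all regions tested) and 5 lower (20.7%). Higher were the far end of PVT1 (0.794 ± 0.123, adjusted p = 0.000315), the PVT1 region 122 kb downstream (0.826 ± 0.149, adjusted p = 0.000900), the CASC19 region (1.42 ± 0.319, adjusted p = 0.00396) and the MYC promoter (0.726 ± 0.198, adjusted p = 0.0116). The remaining higher one was an intron site 701 kb upstream (1.31 ± 0.401, adjusted p = 0.0213). Lower were the CCDC26 promoter (-0.853 ± 0.137, adjusted p = 0.000407), the site 141 kb upstream (-1.20 ± 0.224, adjusted p = 0.00115) and the PVT1 intron 170 kb downstream (-0.860 ± 0.203, adjusted p = 0.00524). The remaining lower ones were the site 68.0 kb upstream (-1.11 ± 0.299, adjusted p = 0.0107) and the region 443 kb upstream (-0.611 ± 0.195, adjusted p = 0.0254). The lines at 0 h also differ in the form of the name: with it as a term the MYC promoter difference was -0.127 and that of the CASC19 region -0.0688. At 1 h 3 members were higher (5.68%) and 3 lower (6.15%). The lower ones were the upstream regions at 491, 473 and 443 kb, at differences of -0.847, -0.523 and -0.692. The higher ones were the PVT1 regions 122 and 114 kb downstream (0.905 ± 0.149 and 0.670 ± 0.154, adjusted p = 0.00335 and 0.0156) and LINC00824 (0.390 ± 0.115, adjusted p = 0.0427). Within 1 form of name, without WT 1 h replicate 1, 2 members were higher (10.0%) and 7 lower (9.54%), and the MYC promoter was lower in the RAD21 line by 0.709 ± 0.121 (adjusted p = 0.000304).

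The upstream belt also differed between the lines in which sites were called at all. At 0 h 10 members were called in both lists of the RAD21 line and neither of WT (5.28% of all regions), all of them in PVT1, and 10 the other way (2.83%), of which 6 lay upstream of MYC. Without RAD21 line 0 h replicate 1 the gained members were 40 (14179 of all regions, against 4629 with every list). Without WT 0 h replicate 1 or 2 the lost members were 22 and 23 (5583 and 5959 of all regions, against 2480). Against WT 1 h replicate 2 and both WT 10 h lists, which share the form of name but not the time, 6 members were gained and 6 lost (2.08% and 2.38% of all regions). At 1 h 2 were gained in the RAD21 line against WT (3.23%) and 5 lost (1.15%), 4 of them upstream. The gained members were 6 without RAD21 line 1 h replicate 1 and 7 without WT 1 h replicate 2 (7009 and 5848 of all regions, against 2834). The lost members were 27 and 11 without WT 1 h replicate 1 and 2 (8327 and 3780 of all regions, against 1011). Over all times, 3 members had a peak in 6 of 6 WT lists and in 0 of 4 lists of the RAD21 line (0.212% of all regions), and 0 showed the opposite pattern (0.180% of all regions). The 3 were at 429 kb (chr8:128319147-128320551), 396 kb (chr8:128352058-128353253) and 394 kb upstream (chr8:128354053-128355066), in CASC8 and PCAT1. Their WT percentiles were 20.4 to 49.2, 5.30 to 52.0 and 17.2 to 53.6. Next to the last 2, a region 407 kb upstream (chr8:128341943-128345522) was called in 6 WT lists and 1 of the RAD21 line. All 3 carried H3K4me1 in all 6 WT lists, and H3K4me1 of the RAD21 line was not analysed here. Both forms of peak name occur among the WT lists that held these peaks.

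The change at 1 h differed between the lines at 4 of the 21 members, by the interaction term of the fit: 1 was higher (11.7% of all regions tested) and 3 lower (11.0%) in the RAD21 line than in WT. The MYC promoter was among them (-1.01 ± 0.280, adjusted p = 0.0200), and within 1 form of name per line the value was -0.585 ± 0.161 (adjusted p = 0.00748). Without any single WT 0 h or RAD21 line list the MYC term lay between -1.06 and -0.960 and was not called. It kept its call only when a WT 1 h or 10 h list was the one left out. The far end of PVT1 (-0.755 ± 0.175, adjusted p = 0.00803), the region 491 kb upstream (-0.720 ± 0.227, adjusted p = 0.0368) and the PVT1 intron 170 kb downstream (0.903 ± 0.287, adjusted p = 0.0382) were the others. Over the 10 fits that left out 1 list each, the first of these kept its call in 10, the region 491 kb upstream lost it in 8 (-0.921 to -0.502 over all 10) and that 170 kb downstream in 7 (0.503 to 1.19). For the PVT1 promoter the term was -0.0516 ± 0.177 (adjusted p = 0.861). At the far end of PVT1 the WT change at 1 h was also downward, at -0.294 ± 0.123, and not called (adjusted p = 0.0905). There the term therefore reflects a larger downward change in the RAD21 line, not an opposite one.

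H3K4me1 covered far more of the neighbourhood than H3K27ac: 476 ± 41.8 kb at 0 h, 535 ± 26.6 kb at 1 h and 454 ± 35.0 kb at 10 h (mean ± SD, n = 2), or 0.251 to 0.262% of each list. No test of these lengths was run. H3K4me1 peaks were called in broad mode and H3K27ac peaks in narrow mode, so the lengths of the 2 marks are unlike measures. Each list lay above 91.0 to 93.1% of the 3 Mb tiles. The longest H3K4me1 region spanned 139 kb of PVT1 from its promoter (chr8:128805093-128944430) and was the 5th longest in the genome. It was covered over 125 to 137 kb in every list, at percentiles 95.8 to 99.8, with no order by time. The next were 65.3 kb over CASC19 (chr8:128207959-128273291, 57th longest, covered over 52.8 to 62.7 kb), 38.9 kb at CCDC26 across the edge of the interval, and 2 neighbours of 26.0 and 22.6 kb that carry the upstream belt on to the internal PCAT1 start. At MYC itself H3K4me1 flanked the start: 1 region of 11.5 kb ended 0.216 kb before it and another of 11.3 kb began 1.56 kb after it, both in 6 of 6 lists.

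Every H3K27ac region called in all 10 lists had H3K4me1 in all 6 H3K4me1 lists (21 of 21, against 99.4% of such regions in the genome). In the other direction, 52 of the 96 H3K4me1 regions called in all 6 lists (54.2%, against 42.1% in the genome) had H3K27ac in no list, and 16 (16.7%, against 32.5%) had it in all 10. Those without H3K27ac were short and weak in H3K4me1 (median 1.28 kb and percentile 42.7) and those with it in all lists were long and strong (8.95 kb and 95.1). An overlap of 1 bp counted as having the other mark, which a longer region meets more readily. The difference in length is therefore partly built into the grouping, and no genome value was set beside it. Of the 52, 27 lay upstream of MYC, 3 around MYC, 2 in PVT1 and 20 beyond it. PVT1, with 16 H3K4me1 regions in all lists, thus held 2 without H3K27ac.

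Few H3K4me1 rank changes were called after Nutlin-3a, with 2 lists a group. In limma over 60476 regions no member rose at 1 h or 10 h, where 176 and 372 of all regions rose. At an unadjusted p under 0.05 were 18 and 14 of the 96 members, and 9401 and 5235 of all regions. At 1 h 1 member fell and at 10 h 1, where 0.304% and 0.0231% of all regions fell. It was the same region both times, at an internal promoter of LINC00824 691 kb downstream (chr8:129439884-129441215), with percentiles 88.1 and 90.9 at 0 h, 57.0 and 46.8 at 1 h and 51.8 and 64.3 at 10 h. It fell by 1.49 ± 0.212 (adjusted p = 0.00622) and 1.14 ± 0.212 (adjusted p = 0.0180), and its fold enrichment was 6.42 and 6.69 at 0 h against 3.16 to 4.43 later. The groups did not overlap. Ranked by fold enrichment it was not called at either time, when 6 and 4 of the 60476 regions passed. The 1 h call was lost without either 0 h list or 1 h replicate 2 and the 10 h call without any single 0 h or 10 h list, at changes of -1.59 to -1.35 and -1.27 to -0.983. At 1 h 4 members were gained (3.30% of all regions) and 3 lost (1.75%), and at 10 h 3 were gained (2.63%) and 3 lost (2.29%). Leaving out single lists moved these counts to between 3 and 22, and those of all regions to between 3489 and 11939. All 3 H3K4me1 gains at 10 h lay over PVT1 exons that also gained H3K27ac, and all were weak. That 253 kb downstream (chr8:129001616-129002732, only in the 2 10 h lists) was at percentiles 13.9 and 22.2. That 203 kb downstream (chr8:128951467-128952826, in the 1 h and 10 h lists) was at 8.88 and 24.1 at 10 h. That 354 kb downstream (chr8:129102543-129103687, in 1 h replicate 2 and the 10 h lists) was at 0.207 and 9.97 at 10 h. The H3K27ac region there was at 3.34 and 7.26 at 10 h.

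Since Nutlin-3a acts through p53, the regions were also scanned for the p53 response element, 2 adjoining copies of the p53 decamer with intact cores and at most 2 mismatches elsewhere, which reads the same on both strands. Within 1000 bp around the strongest summit, 1 of 152 members held a match (0.658%), against 1.79% of all regions. It was the region 253 kb downstream gained at 10 h, with the match 254 kb from the MYC start, and over whole regions the only further match was in the PVT1 promoter region, 1.23 kb after the PVT1 start. Both matches had 2 mismatches, the most allowed, and whole regions were not scanned over the genome. Around the summits of regions called in all lists, 0 of 21 members held a match, against 0.677% of all such regions. A match describes the sequence and does not show binding.

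The partners and antagonists of MYC in the MAX network were compared at their own promoters. MAX is the obligate partner, MNT, MXD1, MXI1, MXD3, MXD4 and MGA bind MAX and repress or compete, MLX and MLXIP form a parallel branch, and MYCN and MYCL are paralogs of MYC. Of the 11, 10 had a promoter region with H3K27ac in all 10 lists and MYCN in none. In WT, 2 of the 10 rose and 1 fell at 1 h (14.3% and 14.8% of all regions). At 10 h 3 rose and 1 fell (9.70% and 8.56%), in the contrast whose groups differ in the form of peak name. In the RAD21 line 3 rose and 0 fell at 1 h (14.4% and 13.4%). The MNT promoter was at 96.7 to 99.9 in every list. The MXI1 promoter rose at 1 h in WT, from 75.5 and 76.3 to 88.5 and 85.5 (0.464 ± 0.131, adjusted p = 0.0185), and MXD4 fell from 79.8 and 78.9 to 65.9 and 69.7 at 1 h (-0.615 ± 0.119, adjusted p = 0.00249) and rose to 92.7 and 92.1 at 10 h (0.503 ± 0.119, adjusted p = 0.0134). The MAX promoter was not called at 1 h or 10 h in WT (-0.186 and -0.0443, adjusted p = 0.234 and 0.812).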

How the data were processed

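ChIP-seq of H3K27ac and H3K4me1 was analysed from 16 deposited peak lists in 8 groups of 2, and 10 input samples without lists were not used here. Per the labels and the study's methods, the authors trimmed reads (Trim Galore 0.6.6), aligned them to GRCh37 (Bowtie2 2.3.2) and called peaks against input with MACS2 2.2.7.1, narrow for H3K27ac and broad for H3K4me1, separately for each sample. The deposited columns used were each peak's fold enrichment (a ratio), -log10 p-value and its -log10 q-value. Read depth and alignments were not analysed here, so counting error is unknown.

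Peaks of a mark sharing at least 1 bp were merged over its lists (Python 3.11.15, pandas 2.3.3). Regions called in all lists were ranked within each list by -log10 p, transformed to normal scores and tested with limma 3.58.1 in R 4.3.3 over all such regions, all groups in 1 fit, with Benjamini-Hochberg adjustment and a threshold of 0.05. The script was tested on simulated data. Promoters were 1000 bp upstream to 200 bp downstream of GENCODE release 44 starts on GRCh37. Replicate numbers did not pair the lists (correlations of deviations -0.0501 to 0.0453). Alternatives were the replicate block, the form of the peak name as a term, ranking by fold or width, peaks at -log10 q of at least 5, 25% overlap, other stitching distances and leaving out each list. Members and gene lists were chosen with earlier results of these data known. Named regions were the MYC and PVT1 promoters, regions called in all 10 lists, clusters of 2 or more regions, up to 3 called regions a direction, up to 5 gained and 5 lost by mean percentile, the 5 longest H3K4me1 regions and the MAX network. The comparisons within 1 form of name and the motif scan were chosen after seeing the data. A result on 1 marker gene is not reported here.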

Additional observations from a re-analysis of the deposited data

Results flagged for a closer look

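At 4 of the 21 H3K27ac regions called in every list the change after 1 h of Nutlin-3a differed between the RAD21 line and WT, by the interaction term of the limma fit (RAD21 line minus WT, normal-score scale). At the MYC promoter the difference was -1.01, with the WT lists rising and both RAD21 line lists at 1 h below both at 0 h. Near the far end of PVT1, 439 kb downstream, it was -0.755, where WT changed by -0.294 and the RAD21 line by -1.05. At 491 kb upstream the difference was -0.720. In the PVT1 intron 170 kb downstream it was 0.903. Within 1 form of peak name per line, without WT 1 h replicate 2, the values were -0.585, -0.661, -0.502 and 0.997, with adjusted p of 0.00748, 0.00451, 0.0726 and 0.00949, so the region 491 kb upstream was no longer called. The part of the form of the name in these differences was not tested otherwise.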

How the results depend on the processing

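The limits were 2 lists a group, an unknown read depth, and a form of peak name that runs with the groups. Calls of member regions held under the replicate block, where 48 of 48 values kept their side of the threshold and the calls at 10 h in WT went from 6 to 7. Ranking by fold left 0 called for the 1 h changes of both lines, for RAD21 line against WT at 1 h, for the interaction and for H3K4me1 at either time, and 6 for RAD21 line against WT at 0 h. It turned the internal PCAT1 start between the lines to 0.1742 at 0 h and 0.1342 at 1 h. With the form of the name as a term, 0 were called at 10 h and 6 for RAD21 line against WT at 0 h. It turned the CASC19 region to -0.1819 at 10 h and -0.06878 between the lines, and the MYC promoter to -0.1273 between the lines.

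Ranking by summed width left 2 calls for the 1 h change of WT, 1 for that of the RAD21 line, 1 for the line difference at 1 h and 0 for the interaction. At 1 h in WT it turned the region 473 kb upstream to -0.1638, the PVT1 promoter to -0.08385, LINC00824 to -0.3059, the region 1161 kb downstream to 0.1110 and the CCDC26 promoter to -0.1347. At 10 h it turned CASC19 to -0.2759 and LINC00824 to -0.8363. In the RAD21 line at 1 h it turned the PVT1 promoter to -0.07913 and the region 69.4 kb downstream to -0.02394. Between the lines at 0 h it turned CASC19 to -0.2199, MYC to -0.03106 and the region 170 kb downstream to 0.06044, and at 1 h LINC00824 to -0.3204. The interaction became 0.04453 at 491 kb upstream, 0.008814 at MYC and -0.3919 at 170 kb downstream. The causes were not tested.

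With presence at -log10 q of at least 5, gained and lost H3K27ac members numbered 0 and 0 for WT at 1 h, 4 and 0 at 10 h, 4 and 1 for RAD21 line after 1 h, and 0 and 3 (0 h) or 0 and 2 (1 h) for RAD21 line against WT. H3K4me1 had 0 gained and 0 lost at both times, and 0 rank calls at 10 h. Covered lengths became 42.66 and 113.4 kb in WT at 0 and 10 h, 77.69 and 103.7 kb in the RAD21 line, and 414.8, 453.2 and 397.9 kb for H3K4me1. Within 1 form of name 21 were lost at 10 h, and 6 gained and 6 lost between the lines. Stitching over 25 kb left 5 clusters of 2 or more regions, and length weighted by fold put the PVT1 cluster at a median rank of 324.5.

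Leaving out each list in turn gave 4 to 12 H3K27ac calls for WT at 1 h, 0 to 13 at 10 h, 6 to 12 for RAD21 line after 1 h, 6 to 13 (0 h) and 1 to 9 (1 h) for RAD21 line against WT, and 1 to 11 for the interaction, and 0 to 1 for H3K4me1 at both times. Gained and lost members ranged over 2 to 24 and 3 to 15 for WT at 1 h, 13 to 26 and 5 to 19 at 10 h, 8 to 11 and 9 to 39 for RAD21 line after 1 h, and for RAD21 line against WT over 10 to 40 and 11 to 23 (0 h) and 2 to 7 and 5 to 27 (1 h), and for H3K4me1 over 7 to 22 and 3 to 14 at 1 h and 3 to 8 and 5 to 17 at 10 h. Counts over all regions of the genome also moved when a list was left out, so these ranges are not particular to the neighbourhood. A lone list left in a group was assumed to vary like the other groups. No single call reversed when a list was left out.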
